A study of Mus musculus with 31 samples.

Results

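Cirbp and Rbm3, the genes of the cold-inducible RNA-binding proteins, were examined across 31 libraries of mouse thalamus. They are 2 of the 25497 genes matched in the deposited tables and 2 of the 14886 genes left after a filter on low counts, which both passed. They were chosen by name, with their levels, their transcripts and their correlation with each other and with the heat-shock gene Hspa1a already known from these data. Those values are therefore given as a description, with no test. The study compared the offspring of mothers reared in social isolation (SIR) with the offspring of control mothers at postnatal day 90, in 7 SIR males, 8 control males, 8 SIR females and 8 control females. The offspring differ by label only in the rearing of the mother and in sex. The labels name no litters, strain or processing batches, so the p-values below measure the spread between these animals, and litter mates would count as separate animals.

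Cirbp and Rbm3 are small proteins with a single RNA recognition motif followed by a glycine- and arginine-rich tail. Their transcripts and proteins rise when mammalian cells are cooled mildly and fall when they are warmed, whereas heat-shock chaperones follow the opposite course. In the mouse brain, Rbm3 is known for the preservation of synapses after cooling, and Cirbp for its daily rhythm, which follows body temperature, and for its effect on the transcripts of the circadian clock.

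The coding sequences show what the deposited transcripts can tell apart. Rbm3 lies on chromosome X and its main transcripts fall into a long coding form of 462 bases and a short one of 459 bases. The forms are shown around the only place where they differ, an AAG in capitals that the long form holds and the short form lacks, in coding bases 378 to 434 of the long form and 378 to 431 of the short form.
Rbm3-203: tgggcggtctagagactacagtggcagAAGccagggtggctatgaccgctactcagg
Rbm3-202: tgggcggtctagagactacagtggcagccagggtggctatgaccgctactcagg
Cirbp lies on chromosome 10. Its main coding transcript, Cirbp-202, and the transcript Cirbp-201, which the annotation marks as a target of nonsense-mediated decay, are shown from coding base 463 to the end of their coding sequences, with the bases after the point where they part in capitals.
Cirbp-202: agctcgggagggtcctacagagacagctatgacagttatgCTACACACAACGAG
Cirbp-201: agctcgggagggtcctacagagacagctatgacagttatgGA

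The stretch just upstream of the start of Cirbp-202 is shown because Cirbp is one of the genes for which a mild-cold response element has been described in mouse cells. It is taken from the RefSeq promoter table of the build GRCm38.p6 and spans 189 bases on the plus strand, chr10:80167589-80167777. Matches to that element, TCCCCGCC, and to the GC box, GGGCGG on either strand, are in capitals.
Cirbp upstream: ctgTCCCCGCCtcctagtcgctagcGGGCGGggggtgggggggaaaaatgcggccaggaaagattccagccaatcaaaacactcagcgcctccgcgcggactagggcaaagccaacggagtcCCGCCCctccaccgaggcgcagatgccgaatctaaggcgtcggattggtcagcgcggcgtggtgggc
TCCCCGCC was found 1 time, beginning 186 bases upstream of the start, and 2.86% of 32851 promoter windows of the same length hold it on either strand. GGGCGG was found 2 times, beginning 164 and 67 bases upstream, and 22.64% of the windows hold it. The E-box CACGTG and the heat-shock pairs GAANNTTC and TTCNNGAA had 0 matches on either strand in these letters, and 3.99%, 4.89% and 5.35% of the windows hold them. The matches describe the letters only.

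Library totals ran from 13 to 25.74 M (mega) estimated counts, with a median of 23.28 M. Cirbp took 234 to 1477 of them per library and Rbm3 292 to 1389. The library labelled SIR female 5 held 29 TPM (a share of all transcripts, scaled by transcript length) of the Y-linked gene Ddx3y, where libraries labelled male held 20.55 to 38.43 TPM and each of the other females at most 0.04 TPM. It was kept in its labelled group, and the gene-level log2 differences and female mean levels of Cirbp and Rbm3 that rest on it are also given without it. The library numbers of the SIR animals, 320 to 432, all lie below those of the controls, 554 to 746, so any difference in handling that goes with the number ranges cannot be told apart from the rearing of the mother. All 13 thalamus markers listed passed the filter on low counts, with a summed level of 1202 to 2004 TPM over the libraries.

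Cirbp was highest in control males and lowest in control females, and the SIR groups of both sexes stood between them. Cirbp levels in SIR males ran from 35.12 TPM, with a median of 70.16 TPM, to 95.96 TPM, and in control males from 64.7 TPM, with a median of 78.95 TPM, to 109.7 TPM. In SIR females they ran from 45.66 TPM, with a median of 54.81 TPM, to 68.01 TPM, and in control females from 33.97 TPM, with a median of 44.62 TPM, to 52 TPM. Each of the 8 control males lay above each of the 8 control females, while 4 of the 7 SIR males lay above the highest SIR female and SIR male 14 lay below the lowest. The means were 69.86 ± 20.17 TPM in SIR males (SD, n = 7), 82.9 ± 16.07 TPM in the 8 control males, 55.97 ± 7.76 TPM in the 8 SIR females and 43.1 ± 7.24 TPM in the 8 control females.

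Rbm3 followed the same order of groups at a slightly higher level. Rbm3 levels in SIR males ran from 65.29 TPM, with a median of 84.47 TPM, to 127.1 TPM, and in control males from 79.5 TPM, with a median of 107.4 TPM, to 128.7 TPM. In SIR females they ran from 43.24 TPM, with a median of 67.12 TPM, to 74.49 TPM, and in control females from 44.59 TPM, with a median of 56.48 TPM, to 66.88 TPM. Control males again lay wholly above control females, and 5 of the 7 SIR males lay above the highest SIR female. The means were 89.27 ± 21.47 TPM in SIR males (SD, n = 7), 106.8 ± 19.21 TPM in the 8 control males, 64.19 ± 11.32 TPM in the 8 SIR females and 57.47 ± 7.63 TPM in the 8 control females. Over all genes, TPM ranges of control males that lie wholly above those of control females were found for 27 of 14886 genes (0.181%), a share given as background, since both genes were chosen with these levels known. The library labelled SIR female 5, with 51.9 TPM of Cirbp and 65.87 TPM of Rbm3, lay among the other SIR females. Without it, the SIR female means were 56.54 ± 8.19 TPM for Cirbp and 63.95 ± 12.2 TPM for Rbm3 (SD, n = 7).

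**Figure D1:**
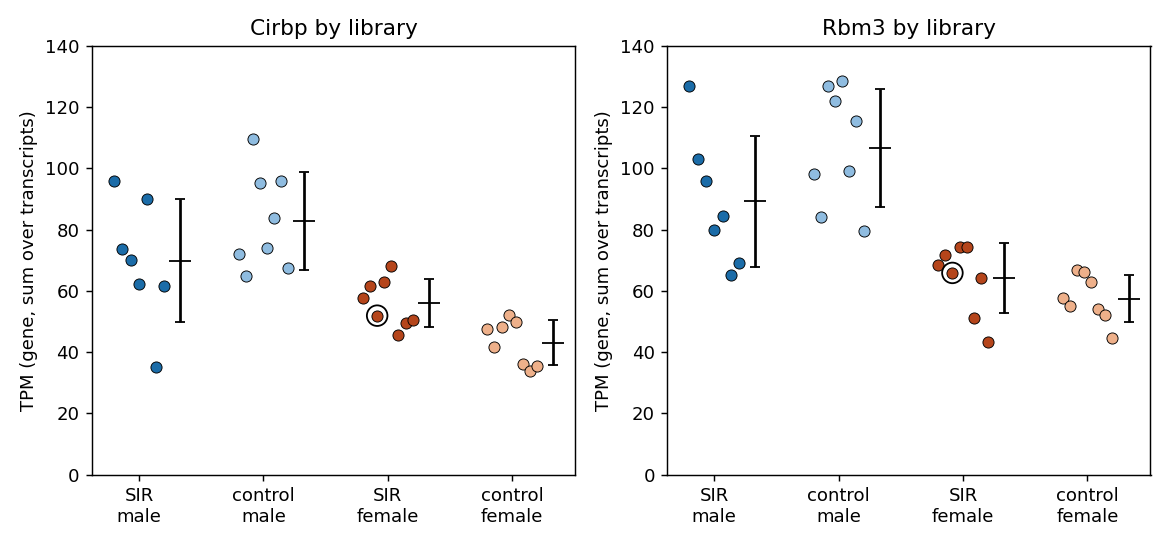
Levels of Cirbp (left) and Rbm3 (right) in TPM, on the vertical axis, in each library of the 4 groups, with the group mean and SD as a bar beside the points and the library labelled SIR female 5 ringed. For both genes the 8 control males lie above the 8 control females, and each pair of neighbouring groups in the order of the means overlaps.

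In the order of the means, control males, SIR males, SIR females and control females, each pair of neighbouring groups overlapped for both genes. Beyond control males against control females, the only pair of groups with no overlap was control males against SIR females for Rbm3. The share of all genes without overlap was not computed for that pair, so how unusual it is cannot be said. In bulk tissue, fewer cells of a type and less RNA per cell cannot be told apart, so these levels do not say which cells carried the difference.

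The sex difference was larger in control offspring than in SIR offspring. Over both rearing groups, Cirbp averaged 76.81 ± 18.68 TPM in males (SD, n = 15) and 49.53 ± 9.83 TPM in females (n = 16), and the fitted log2 difference in counts was 0.67 ± 0.10 (SE), or 1.59-fold. Rbm3 averaged 98.6 ± 21.53 TPM in males and 60.83 ± 9.95 TPM in females, and its fitted log2 difference was 0.68 ± 0.09 (SE), or 1.60-fold. For both genes the difference exceeded that of 99.5% of the 14886 genes. Females other than the library labelled SIR female 5 averaged 49.37 ± 10.16 TPM for Cirbp and 60.49 ± 10.2 TPM for Rbm3 (SD, n = 15). Of the 15 males, 13 lay above the highest female for Rbm3 and 10 for Cirbp.

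Within the SIR offspring the male minus female log2 difference was 0.35 ± 0.14 (SE) for Cirbp, and within the control offspring it was 0.99 ± 0.14. For Rbm3 the differences were 0.49 ± 0.12 in SIR offspring and 0.86 ± 0.12 in control offspring. SIR males thus had 1.28-fold the Cirbp and 1.41-fold the Rbm3 of SIR females, and control males had 1.98-fold the Cirbp and 1.82-fold the Rbm3 of control females. Without the library labelled SIR female 5, the male minus female log2 difference over both rearing groups was 0.66 for Cirbp and 0.68 for Rbm3, and within the SIR offspring it was 0.34 for Cirbp and 0.51 for Rbm3. With 1 library left out, the value in SIR offspring was lowest without SIR male 1 and highest without SIR male 14. These 2 were the highest and the lowest of their group for both genes. It was 0.24 for Cirbp and 0.37 for Rbm3 without SIR male 1, and 0.47 for Cirbp and 0.56 for Rbm3 without SIR male 14.

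The fitted SIR minus control difference was positive in females and negative in males for both genes. In females, Cirbp was above the control median in 8 of 8 SIR animals and above the highest control in 4, and its SIR minus control log2 difference was 0.46 ± 0.14 (SE), or 1.38-fold. Rbm3 was above the control median in 6 of 8 SIR females and above the highest control in 4, with a log2 difference of 0.17 ± 0.12. It was below the control median in 2 SIR females, and in 1 of them, SIR female 12, below the lowest control. In males, Cirbp was below the control median in 5 of 7 SIR animals, with a log2 difference of -0.17 ± 0.14, and Rbm3 was below it in 6 of 7, with -0.20 ± 0.12. Without the library labelled SIR female 5, the female difference was 0.48 for Cirbp and 0.16 for Rbm3. On log2(TPM + 1) the male difference of Cirbp was -0.28, and with the trend of counts on transcript length removed it was -0.26.

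Among the 14886 genes, 97.8% had a lower SIR minus control difference in females than Cirbp and 89.7% a lower one than Rbm3, and in males 12.1% and 9.3% had a lower one. Averaged over the sexes, whose fitted differences had opposite signs, the log2 differences were 0.15 ± 0.10 for Cirbp and -0.01 ± 0.09 for Rbm3. The average of Cirbp was 0.05 on log2(TPM + 1), 0.09 with the length trend removed and 0.09 without SIR male 1, and that of Rbm3 was -0.06, -0.08 and -0.07 in the same settings and 0.02 without SIR female 12. These averages were 0.15 for Cirbp and -0.02 for Rbm3 without the library labelled SIR female 5. The male effect minus the female effect was -0.63 ± 0.20 for Cirbp and -0.37 ± 0.17 for Rbm3, and without the library labelled SIR female 5 it was -0.65 and -0.35. The male effect on Cirbp lay between -0.29 without SIR male 1 and -0.05 without SIR male 14, with -0.09 without control male 21, and that on Rbm3 between -0.32 and -0.13 without the same animals. The female effect on Rbm3 was 0.14 without control female 31 and 0.24 without SIR female 12.

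Hspa1a, the inducible Hsp70 chaperone, showed no such order of groups. Its level averaged 12.59 ± 4.39 TPM in SIR males (SD, n = 7), 12.91 ± 4.36 TPM in the 8 control males, 10.34 ± 1.33 TPM in the 8 SIR females and 11.99 ± 2.86 TPM in the 8 control females. Its range in every group overlapped that in every other, and its male minus female log2 difference over both rearing groups was 0.19 ± 0.14 (SE).

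**Figure D2:**
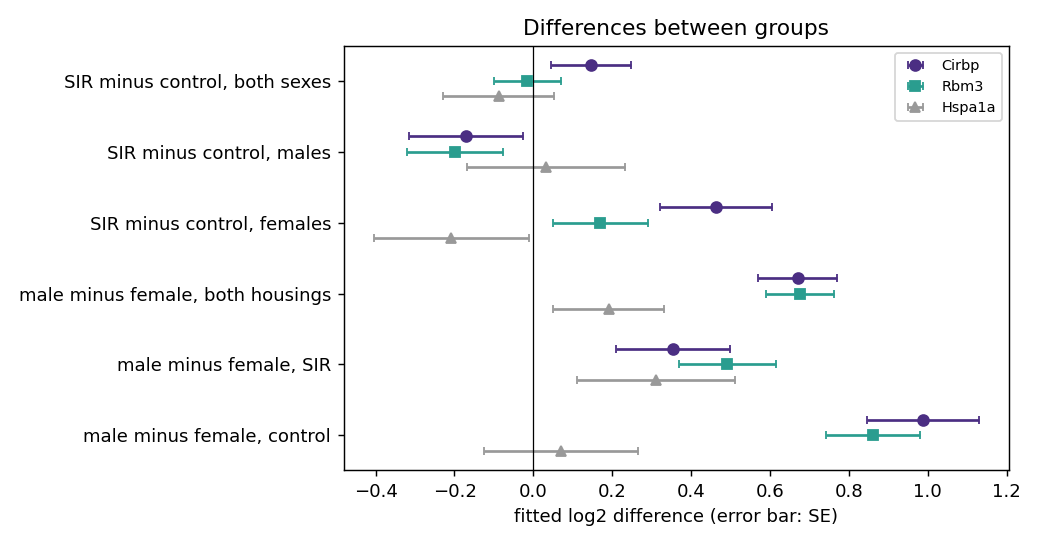
Fitted log2 differences in counts of Cirbp, Rbm3 and Hspa1a, on the horizontal axis, for the rearing comparisons (top) and the sex comparisons (bottom), with SE as error bars. The male minus female difference in control offspring is the largest for Cirbp (0.99) and for Rbm3 (0.86), and the SIR minus control differences have opposite signs in males and females for both genes.

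Technical quantities and library numbers were set beside these levels. The libraries with numbers apart from the rest (320 to 323 and 738 to 746) included control females 29, 30 and 31, which held the 3 lowest Cirbp levels of their group, 33.97 to 36.01 TPM, where the other 5 control females held 41.71 to 52 TPM. SIR male 1, the highest of its group for both genes, was also among them. Without these 8 libraries, the SIR minus control log2 difference of Cirbp was 0.31 in females, -0.31 in males and -0.0014 over both sexes, that of Rbm3 was 0.07 in females, -0.37 in males and -0.15 over both sexes, and the male minus female difference was 0.57 for Cirbp and 0.61 for Rbm3. After the group means were removed, the Pearson correlation of log2 counts-per-million with the library number was -0.39 for Cirbp and -0.46 for Rbm3. With the library total it was -0.11 for Cirbp and -0.22 for Rbm3, and with the slope of each library's counts on transcript length -0.38 and -0.30. That slope itself averaged -0.039 ± 0.0252 in SIR males (SD, n = 7), 0.0048 ± 0.0221 in the 8 control males, 0.0008 ± 0.0165 in the 8 SIR females and 0.0286 ± 0.0257 in the 8 control females, lower in SIR than in control offspring of both sexes. These are descriptions over 31 libraries, and the part of these quantities in the levels was not tested.

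Marker lists were set beside the levels as well. For single genes of at least 5 counts-per-million, the median size of a correlation, sign ignored, was 0.27 with Cirbp and 0.19 with Rbm3, with group means removed. Some of the scores below lie near these values. The summed level of the hypothalamus markers, 9 of 10 of which were tested and 0 of which passed in any of the 5 comparisons, ran from 50.06 to 2077 TPM in SIR males, 193.9 to 1846 TPM in control males, 272.4 to 1792 TPM in SIR females and 84.86 to 1648 TPM in control females. Its median was 1122 to 1380 TPM in the SIR groups and control males and 217.7 TPM in control females. With group means removed, the hypothalamus score correlated with Cirbp at 0.65 and with Rbm3 at 0.33 over 31 libraries. The score of the 8 neuron markers correlated at -0.58 with Cirbp and -0.43 with Rbm3, and their summed level ran from 5067 to 6511 TPM in SIR males, 5961 to 6624 TPM in control males, 5561 to 6457 TPM in SIR females and 5414 to 6317 TPM in control females. The 8 oligodendrocyte markers summed to 7421 to 9370 TPM in SIR males, 6768 to 9304 TPM in control males, 6935 to 8976 TPM in SIR females and 9183 to 10920 TPM in control females, the group lowest in Cirbp, and the score correlated at -0.27 with Cirbp and -0.11 with Rbm3. Of these 8, 4 were called lower in SIR than in control females (beside 2.24% of all genes), 2 higher in SIR than in control males (beside 0.282%), and 7 had a called positive interaction (beside 1.08%). Of the 13 thalamus markers, 6 were called higher in SIR than in control females (beside 2.38% of all genes) and 6 had a called negative interaction (beside 1.75%), and their score correlated at -0.43 with Cirbp and -0.30 with Rbm3. The choroid plexus and ependyma markers, 9 of 10 of which were tested, summed to 15.23 to 48.78 TPM in SIR males, 31.76 to 111.3 TPM in control males, 28.35 to 485.6 TPM in SIR females and 23.07 to 3455 TPM in control females, where the median was 126.2 TPM, against 40.19 TPM in SIR females. Of these 9, 2 were called lower in SIR than in control females and 3 lower in males than in females (beside 5.65%), and the score correlated at 0.26 with Cirbp and 0.14 with Rbm3. Of the 6 tested midbrain markers, 3 were called lower in SIR than in control females and 1 had a called positive interaction; their summed level stayed within 13.57 to 83.62 TPM over the libraries, and the score correlated at 0.30 with Cirbp and 0.16 with Rbm3. The score of the 8 endothelial and mural markers correlated at -0.37 with Cirbp and -0.13 with Rbm3. That of the 6 markers of oligodendrocyte precursors correlated at -0.36 with Cirbp and -0.18 with Rbm3. None of these markers was at 0 in all libraries. Their part in the Cirbp and Rbm3 levels was not tested.

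Cirbp and Rbm3 varied together from library to library. Over all 31 libraries the Pearson correlation of their log2 counts-per-million was 0.86 (Spearman 0.89), and with the 4 group means removed it was 0.68 (Spearman 0.67). Within the groups it was 0.78 in the 7 SIR males, 0.58 in the 8 control males, 0.53 in the 8 SIR females and 0.89 in the 8 control females, with Spearman values of 0.68, 0.57, 0.81 and 0.98. Without the 2 libraries farthest from the Cirbp median it was 0.84 over all groups, and 0.53 with group means removed. The values of a library share its depth and its RNA, so these are descriptions.

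The Rbm3 to Cirbp ratio of TPM averaged 1.33 ± 0.29 in SIR males (SD, n = 7), 1.30 ± 0.19 in the 8 control males, 1.15 ± 0.14 in the 8 SIR females and 1.34 ± 0.12 in the 8 control females. SIR females had the lowest mean ratio, and the ranges of all 4 groups overlapped. Within the groups, Cirbp varied more than 93.9% and Rbm3 more than 90.2% of the 11251 genes of at least 5 counts-per-million, with a pooled SD of log2 counts-per-million of 0.30 for Cirbp and 0.25 for Rbm3.

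Neither gene followed Hspa1a. Over 31 libraries the Pearson correlation with Hspa1a was -0.001 (Spearman 0.003) for Cirbp and 0.11 (Spearman 0.02) for Rbm3. With group means removed it was -0.12 for Cirbp and -0.03 for Rbm3. The sign differed between the groups of females, with -0.58 for each gene in SIR females (n = 8) and 0.47 for each in control females (n = 8). For Cirbp it was -0.14 in SIR males (Spearman 0.07) and -0.33 in control males (Spearman 0.02). For Rbm3 it was -0.001 in SIR males (Spearman -0.29) and 0.03 in control males (Spearman -0.095). Hspa1b, from the heat-shock list, stood at 0.14 with Cirbp and 0.25 with Rbm3 over all libraries. The estimated counts of Hspa1a and Hspa1b were fractional, so both rest in part on kallisto's split of shared reads.

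**Figure D3:**
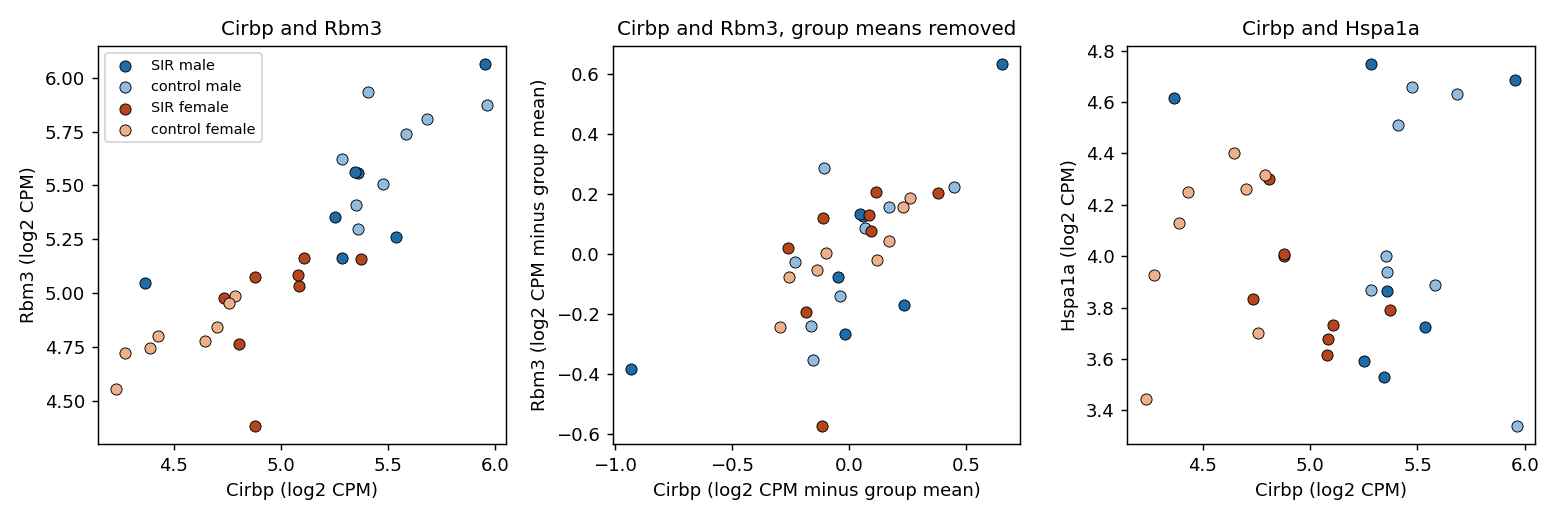
Log2 counts-per-million of Rbm3 against Cirbp for the 31 libraries (left), the same with group means removed (middle), and Hspa1a against Cirbp (right), coloured by group. The first panel has a Pearson correlation of 0.86, the second of 0.68 and the third of -0.001.

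Among 11250 other genes of at least 5 counts-per-million, Rbm3 ranked 98 by its correlation with Cirbp once group means were removed, and Cirbp ranked 3 by its correlation with Rbm3. The median size of a correlation over these genes, sign ignored, was 0.27 for Cirbp and 0.19 for Rbm3. Among the genes most like Cirbp were Chid1 (0.85), Ass1, the argininosuccinate synthase (0.81), Plppr3 (0.81) and Matk (0.80). The most opposed were the tubulin polyglutamylase gene Ttll5 (-0.88), Slco3a1 (-0.83), the Hsp90 co-chaperone gene Chordc1 (-0.82), Sgpp2 (-0.81) and Stip1, which links Hsp70 to Hsp90 (-0.81).

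For Rbm3 the most like genes were the tubulin cofactor gene Tbcd (0.73), Apcdd1 (0.72), Snapc4 (0.68), Paqr6 (0.66) and Mri1 (0.65). The most opposed were Ttll5 (-0.69), Stip1 (-0.67), Pip4p2 (-0.67), Mast2 (-0.67) and Hsp90b1, a chaperone of the endoplasmic reticulum (-0.67). Ttll5 and Stip1 were among the 5 most opposed genes of both. Dbp, a clock output transcription factor, stood at 0.64 with Cirbp and 0.47 with Rbm3, and the chaperone gene Hsph1 at -0.73 and -0.59. The score of the 21 clock genes, Dbp among them, stood at only -0.015 with Cirbp and 0.10 with Rbm3. All these are correlations over 31 libraries with group means removed.

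**Figure D4:**
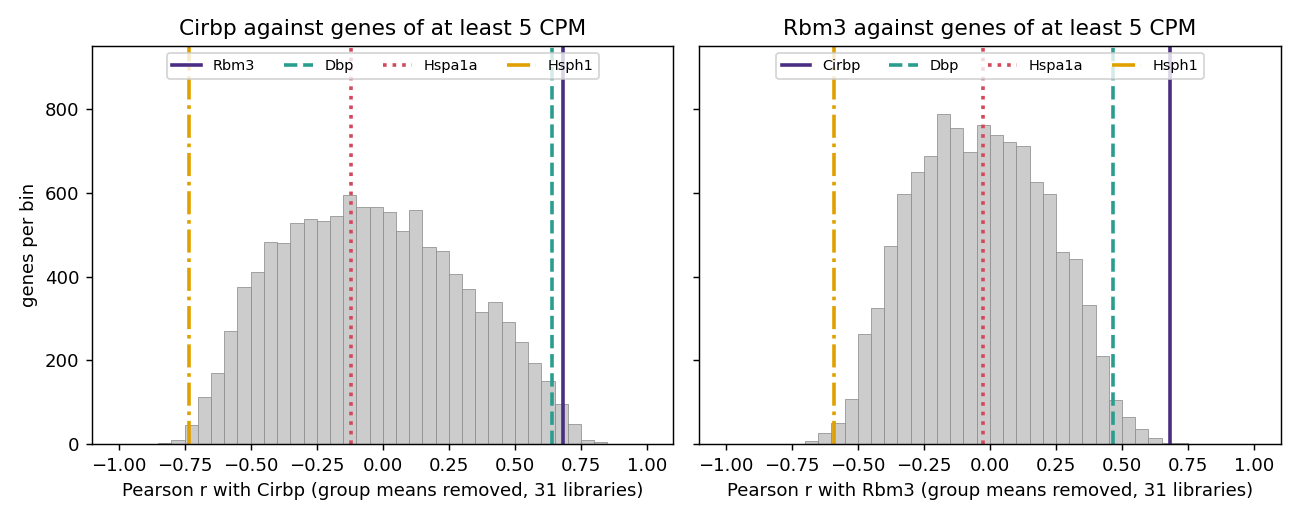
Number of genes per bin of Pearson correlation with Cirbp (left) and Rbm3 (right) over 31 libraries with group means removed, for 11250 genes of at least 5 counts-per-million. Vertical lines mark the other cold-inducible gene (0.68 in both panels), Dbp (0.64 and 0.47), Hspa1a (-0.12 and -0.03) and Hsph1 (-0.73 and -0.59).

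At the level of transcripts, Cirbp rested on one form and Rbm3 on several. Of 7 Cirbp transcripts in the files, Cirbp-202 held 87.45% of the summed counts and Cirbp-201 7.07%. Of 11 Rbm3 transcripts, Rbm3-203 held 31.31%, Rbm3-202 29.21%, Rbm3-206 21.45% and Rbm3-204 11.64%. The other transcripts each held under 5%.

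Cirbp-202 averaged 54.38 ± 17.03 TPM in SIR males (SD, n = 7), 65.66 ± 15.29 TPM in the 8 control males, 43.02 ± 8.36 TPM in the 8 SIR females and 30 ± 6.04 TPM in the 8 control females, the order of the whole gene. Cirbp-201, the transcript that ends in GA in the sequences above, averaged 7.04 ± 2.06 TPM in SIR males, 5.40 ± 2.96 TPM in control males, 6.03 ± 1.76 TPM in SIR females and 5.09 ± 3.29 TPM in control females. Cirbp-201 differed between group means by less than its SD within SIR males. The short coding transcript Cirbp-207 held 2.74% of the summed counts but a mean of 10.1% of the Cirbp TPM, and averaged 5.45 ± 3.80 TPM in SIR males, 9.74 ± 5.62 TPM in control males, 4.19 ± 3.21 TPM in SIR females and 5.52 ± 2.62 TPM in control females. The differences between the means of the sexes and of the female groups were thus mostly in Cirbp-202, while SIR males were below control males in both Cirbp-202 and Cirbp-207. Without the library labelled SIR female 5, the SIR female mean was 43.85 TPM for Cirbp-202, 5.87 TPM for Cirbp-201 and 4.004 TPM for Cirbp-207. The share of Cirbp-202 in the Cirbp counts was 87.14 ± 3.51% in SIR males, 89.94 ± 4.07% in control males, 86.42 ± 3.86% in SIR females and 83.26 ± 5.40% in control females.

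Rbm3-203 averaged 26.35 ± 7.99 TPM in SIR males (SD, n = 7), 36.62 ± 10.83 TPM in the 8 control males, 19.80 ± 4.18 TPM in the 8 SIR females and 18.61 ± 6.34 TPM in the 8 control females. Rbm3-202 averaged 30.52 ± 9.49 TPM in SIR males, 33.71 ± 7.05 TPM in control males, 21.07 ± 4.50 TPM in SIR females and 14.78 ± 5.49 TPM in control females. Rbm3-206 averaged 15.08 ± 2.88, 19.03 ± 4.88, 13.16 ± 2.32 and 10.98 ± 2.70 TPM in SIR males, control males, SIR females and control females. All 3 were highest in control males and lowest in control females. Rbm3-204 was lowest in SIR females instead, at 6.35 ± 3.75 TPM, against 9.34 ± 3.68 TPM in control females, and averaged 12.60 ± 6.39 TPM in SIR males and 13.55 ± 4.27 TPM in control males.

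Summed by coding form, the long form with the AAG averaged 39.08 ± 11.71 TPM in SIR males, 50.30 ± 11.13 TPM in control males, 26.32 ± 5.30 TPM in SIR females and 28.08 ± 4.14 TPM in control females. The short form averaged 46.36 ± 9.97 TPM in SIR males, 52.91 ± 8.34 TPM in control males, 34.41 ± 5.64 TPM in SIR females and 26.14 ± 4.53 TPM in control females. Of these forms together, the long form made up 45.16 ± 5.75% in SIR males, 48.46 ± 3.35% in control males, 43.22 ± 3.91% in SIR females and 51.89 ± 4.52% in control females, and the ranges of the groups overlapped. The SIR minus control difference in females thus lay in the short form, whose mean was higher in SIR females, whereas the mean of the long form was slightly lower in them. Without the library labelled SIR female 5, the SIR female means were 34.51 TPM for the short form and 26.3 TPM for the long form. Forms that differ by 3 bases share nearly all reads, so this split rests on kallisto's estimate.

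**Figure D5:**
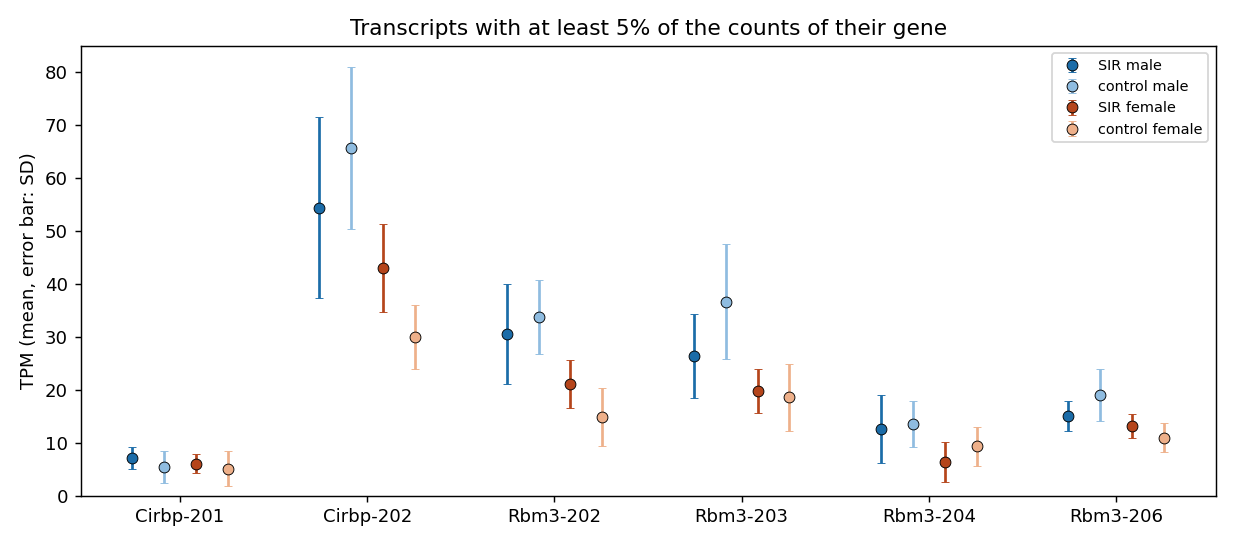
Mean level in TPM, on the vertical axis, with SD, of the transcripts that hold at least 5% of the counts of Cirbp or Rbm3, by group. Cirbp-202 runs from 65.66 TPM in control males to 30 TPM in control females, while Cirbp-201 stays between 5.09 and 7.04 TPM.

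Reads of Rbm3 can be less certain than those of Cirbp. Of the 1540 runs of 31 bases in the main Cirbp transcripts, 0 occur in another annotated gene. Of the 1373 such runs of the main Rbm3 transcripts, 532 occur in 7 other genes, among them the pseudogene Rbm3-ps with 372. Of the 7, Phospho2, which shares 164 runs on the opposite strand, was matched in the tables, with a mean of 471.21 counts per library. The other 6, Rbm3-ps among them, were not among the matched genes, so they have no levels here. Whether reads of these genes were counted as Rbm3 was not tested. Phospho2 averaged 23.30 ± 4.48 TPM in SIR males, 25.66 ± 2.14 TPM in control males, 23.43 ± 2.88 TPM in SIR females and 24.79 ± 2.48 TPM in control females, which is not the order of Rbm3. Cirbp and Rbm3 shared 0 runs with each other.

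Other genes of temperature-dependent RNA processing were followed in a list of 25 splicing factors, Clk kinases and RNA-binding proteins that leaves out Cirbp and Rbm3. Genes were tested with edgeR's quasi-likelihood test, with Benjamini-Hochberg adjustment over all 14886 genes. For SIR minus control over both sexes, Srsf5, a splicing factor, rose (log2 difference 0.27 ± 0.08 SE, adjusted p = 0.0369; 1.76% of all genes were called higher), and the spliceosome genes Luc7l2 (-0.14 ± 0.03, adjusted p = 0.0232) and Son (-0.11 ± 0.03, adjusted p = 0.0261) fell. Srsf5 was not called without SIR males 6, 8 or 15, SIR female 3 or the library labelled SIR female 5, control males 19, 22 or 25, or control females 29 or 30 (adjusted p up to 0.064), nor in 5 of 9 other settings. Son was not called without SIR males 1 or 6 or control male 25, nor in 4 of 9 other settings, where its log2 difference was as small as -0.03 (adjusted p up to 0.702). Son averaged 82.8 ± 3.01 TPM in SIR males, 81.09 ± 5.13 TPM in control males, 82.23 ± 6.70 TPM in SIR females and 87.41 ± 4.36 TPM in control females, so in TPM it was not lower in SIR males. These are 3 of 25, beside 4.55% of all genes called in that comparison in either direction, and the list median was -0.008, beside -0.0056 over all genes. With group means removed, the score of the list correlated at 0.15 with Cirbp and -0.003 with Rbm3 over 31 libraries. Srsf5 averaged 139.9 ± 24.38 TPM in SIR males, 121.4 ± 16.7 TPM in control males, 139.1 ± 22.41 TPM in SIR females and 116.3 ± 27.83 TPM in control females.

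Within males or females alone edgeR made no call in the list. In males it called 0 of 25 (6 at an unadjusted p under 0.05, and 1 called by DESeq2), beside 1.33% of all genes. In females it called 0 of 25 (5 at an unadjusted p under 0.05, and 0 called by DESeq2), beside 4.62% of all genes, and for the interaction 0 of 25 (3 at an unadjusted p under 0.05, and 0 called by DESeq2), beside 2.83%. Males had less Srsf7 (-0.16, adjusted p = 0.0364) and Son (-0.08 ± 0.03, adjusted p = 0.0413) than females, 2 of 25 beside 10.1% of all genes called in either direction; Srsf7 was named after its values were seen. Clk1, a kinase that responds to cooling, differed by -0.01 ± 0.13 between SIR and control offspring over both sexes (adjusted p = 0.974), Tra2b by -0.10 ± 0.04 (adjusted p = 0.119) and Hnrnph1 by 0.05 ± 0.03 (adjusted p = 0.403), and none was called in any comparison.

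These calls moved with single libraries. The count over both sexes was 1 without SIR male 6 or control male 25. The count in females was 1 without control female 24. The count for sex was 0 without SIR males 1 or 6, SIR females 9 or 11, control males 21, 22 or 28, or control females 29 or 30, 1 without SIR male 4, SIR females 7, 10 or 12, control males 19 or 27, or control females 17, 26 or 31, and 5 without SIR male 14. Without the 8 libraries with numbers apart, 0 of the 25 were called over both sexes or for sex.

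Of the 26 heat-shock and chaperone genes, those called over both sexes or in females were lower in SIR offspring. Over both sexes Dnajb4 (-0.14 ± 0.04, adjusted p = 0.0304) and Hspa4l (-0.19 ± 0.05, adjusted p = 0.0319) fell, 2 of 26 beside 2.79% of all genes called lower, with a list median of -0.05. In females the small heat-shock protein gene Cryab (-0.41 ± 0.10, adjusted p = 0.0218) and Hspa5, the chaperone of the endoplasmic reticulum (-0.25 ± 0.07, adjusted p = 0.0387), fell, 2 of 26 beside 2.24% of all genes called lower, with a list median of -0.11 beside -0.01 over all genes. Cryab averaged 430.8 ± 42.72 TPM in SIR males, 344.1 ± 68.6 TPM in control males, 426.9 ± 52.44 TPM in SIR females and 565.9 ± 69.16 TPM in control females, highest in control females and lowest in control males, where Cirbp was lowest and highest. The summed oligodendrocyte markers also had their highest median in control females (9906 TPM) and their lowest in control males (7204 TPM). Of these 8 markers, 7 had a called positive interaction, and their part in the Cryab level was not tested. The male effect minus female effect of Cryab was 0.73 ± 0.15 (adjusted p = 0.00584), 1 of 26 beside 1.08% of all genes with a called positive difference. In males edgeR called 0 of 26 (7 at an unadjusted p under 0.05, and 2 called by DESeq2), beside 1.33% of all genes.

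Against females, males had less Cryab (-0.35 ± 0.08, adjusted p = 0.00398), Hspa4l (-0.20 ± 0.05, adjusted p = 0.0143), Hspa5 (-0.16 ± 0.05, adjusted p = 0.0395) and Chordc1 (-0.23, adjusted p = 0.0298), 4 of 26 beside 5.65% of all genes called lower in males, where Cirbp and Rbm3 were higher; Chordc1 was not called in a rearing comparison. Hspa1b differed by -0.44 ± 0.25 between SIR and control offspring over both sexes (adjusted p = 0.308), Dnajb1 by -0.11 ± 0.06 (adjusted p = 0.251), Hsph1 by -0.04 ± 0.06 (adjusted p = 0.714) and Hspa8 by 0.03 ± 0.04 (adjusted p = 0.697). The score of the list correlated at -0.47 with Cirbp and -0.27 with Rbm3 over 31 libraries with group means removed.

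The count over both sexes was 0 without SIR males 1 or 15, SIR female 3, control males 19 or 25, or control females 29 or 30, and 1 without SIR male 6 or the library labelled SIR female 5. The count in females was 1 without SIR females 2, 3, 5, 7, 9 or 12, or control females 17, 18, 26, 29 or 30, and in males it was 1 without control male 23. The interaction count was 2 without SIR males 1 or 8, control male 16 or control female 24, and the count for sex was 2 without SIR male 1 or SIR female 11 and 7 without SIR male 14. The Cryab interaction was called in each of the 31 fits that left out a library (adjusted p 0.000608 to 0.0126). For sex, the Hspa5 call was lost in 16 of the 31 fits (adjusted p up to 0.0723) and in 3 of 9 other settings. The Chordc1 call for sex was lost in 2 of the 31 fits and in 2 of 9 other settings. Without the 8 libraries with numbers apart, 0 of the 26 were called over both sexes and in females, 1 in males and 1 for sex.

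Of 21 clock genes, with which Cirbp is linked by its daily rhythm, edgeR called 0 over both sexes (5 at an unadjusted p under 0.05, and 0 called by DESeq2), beside 4.55% of all genes, with a list median of -0.03 beside -0.0056 over all genes. In males Nr1d2, a repressor of the clock, fell (-0.30 ± 0.07, adjusted p = 0.0206), 1 of 21 beside 1.05% of all genes called lower. In females Nr1d1 (0.28 ± 0.08, adjusted p = 0.0347), Bhlhe40 (0.28 ± 0.08, adjusted p = 0.0321) and Cry2 (0.16 ± 0.05, adjusted p = 0.0476), all transcriptional repressors of the clock, rose, 3 of 21 beside 2.38% of all genes called higher. The male effect minus the female effect was -0.40 ± 0.09 for Nr1d2 (adjusted p = 0.0119) and -0.28 ± 0.07 for Cry2 (adjusted p = 0.0194), 2 of 21 beside 1.75% of all genes with a called negative difference (list median -0.17, beside 0.004 over all genes), each called in all 31 fits that left out a library. Cry2 averaged 61.64 ± 2.02 TPM in SIR males, 68.88 ± 5.38 TPM in control males, 65.7 ± 5.63 TPM in SIR females and 58.43 ± 6.24 TPM in control females.

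Males had more Nr1d1 (0.30 ± 0.06, adjusted p = 0.0013) and Dbp (0.42 ± 0.10, adjusted p = 0.0112), 2 of 21 beside 4.44% of all genes called higher in males, and less Clock (-0.22, adjusted p = 0.00878) than females; Clock was named after its values were seen. Dbp averaged 107.6 ± 29.79 TPM in SIR males, 129.7 ± 22.16 TPM in control males, 100.3 ± 14.54 TPM in SIR females and 76.42 ± 22.74 TPM in control females, the order of Cirbp and Rbm3, with a SIR minus control difference in females of 0.39 ± 0.15 (adjusted p = 0.116). Per2 differed by -0.30 ± 0.11 between SIR and control offspring over both sexes (adjusted p = 0.113) and Arntl by 0.03 ± 0.07 (adjusted p = 0.864). The labels do not state the hour at which tissue was taken.

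The female call of Cry2 was lost in 17 of the 31 fits that left out a library (adjusted p up to 0.12) and in 4 of 9 other settings, with a log2 difference as small as 0.08. That of Nr1d1 was lost in 7 and that of Bhlhe40 in 6 of the 31 fits. The clock count over both sexes was 1 without SIR male 1 or 14. The count in males was 0 without SIR males 6 or 15 or control males 19, 21, 22 or 25. The count in females was 0 without SIR females 3 or 7 or control females 29 or 31, and 1 without SIR female 9 or control females 18 or 30. Without the 8 libraries with numbers apart it was 0 in females and 4 in males.

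Genes known to work with Cirbp or Rbm3 were also listed, 14 of 15 of which were tested. They include Rtn3, whose translation Rbm3 raises in cooled neurons, Ntrk2, the receptor of BDNF, which acts upstream of Rbm3, Tlr4, a receptor of extracellular Cirbp, and the temperature-gated channel gene Trpv4. EdgeR called 0 of 14 over both sexes, beside 4.55% of all genes, with a list median of -0.07 beside -0.0056 over all genes (4 at an unadjusted p under 0.05, and 1 called by DESeq2), 0 in males (4, and 1 by DESeq2) beside 1.33%, 0 in females (2, and 0 by DESeq2) beside 4.62%, and 0 for the interaction (2, and 0 by DESeq2) beside 2.83%. Between SIR and control offspring over both sexes, Rtn3 differed by -0.06 ± 0.04 (adjusted p = 0.345), Ntrk2 by -0.01 ± 0.03 (adjusted p = 0.921), Tlr4 by -0.09 ± 0.17 (adjusted p = 0.802) and Trpv4 by -0.32 ± 0.24 (adjusted p = 0.448). Males had less Sp1 (-0.18 ± 0.05, adjusted p = 0.0131), Eif4g2 (-0.14 ± 0.03, adjusted p = 0.00955) and Atr (-0.23 ± 0.07, adjusted p = 0.0301) and more Eef2k (0.16 ± 0.05, adjusted p = 0.0456) than females, 4 of 14 beside 10.1% of all genes called in either direction, and these 4 were named after their values were seen. The Eef2k call was lost in 18 of the 31 fits that left out a library (adjusted p up to 0.0862) and in 3 of 9 other settings. The Atr call was lost without SIR male 1, SIR female 11 or control females 29 or 30, and in 3 of 9 other settings (adjusted p up to 0.512). Sp1 and Eif4g2 were called in each of the 31 fits and each lost its call in 1 of 9 other settings.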

How the data were processed

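Polyadenylated RNA of the thalamus was made into stranded libraries, per the labels' protocols. Per the submitters' processing notes, FastQC, kallisto and the build GRCm39 were used; versions and strand settings are not given in the sources used here. For each of 105878 transcripts the deposited tables hold an estimated count that need not be whole, a TPM value scaled by the authors' tool to effective length, and the effective length itself, another deposited value, per the file headers.

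Transcripts were matched by identifier to GENCODE M21, an annotation of GRCm38, used for names and transcript sequences. Of these, 104949 matched (25497 genes), and the other 929 (0.689% to 0.755% of counts) were left out. Counts were summed per gene and rounded. edgeR 4.0.16 (R 4.3.3) was run with filterByExpr, TMM scaling, 4 group means and robust quasi-likelihood, at an adjusted p of 0.05. Groups came from the titles. Log2 counts-per-million used a prior count of 2. A score is the mean of centred log2 counts-per-million over a list. Member levels, transcripts and correlations were given no test. Alternatives were RLE and upper-quartile scaling, no filter, DESeq2 1.42.0, limma 3.58.1 on log2(TPM + 1) and on values with the length trend removed, no robust estimation, and libraries left out. The fit was tested on simulated data. One list gene is not reported here and was left out of its list. Members and lists were chosen with earlier results of these data known. Named list genes were up to 6 per list by smallest p among those called in a rearing comparison, plus fixed examples. Genes set beside a member are the 5 highest and 5 lowest by correlation, without gene models.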

Additional observations from a re-analysis of the deposited data

Results flagged for a closer look

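In 40 groups of 7 or 8 libraries, levels, the Rbm3 to Cirbp ratio and transcript shares were examined for a library far from the rest of its group by Dixon's 95% critical value, and 3 were found. Chance flags about 1 in 20 groups. Control male 23, the shallowest male library, had an Rbm3 to Cirbp ratio of 1.738, where the other control males had 1.158 to 1.361. SIR female 12 had a ratio of 0.8568, where the other SIR females had 1.095 to 1.296. In SIR male 14, the lowest of its group for both genes, Rbm3-206 made up 30.43% of the Rbm3 counts, against 16.61% to 21.34% in the other SIR males.

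The SIR minus control difference was called different between the sexes, by the interaction test of edgeR, for 3 genes of the lists. These were 2 of 21 clock genes and 1 of 26 heat-shock genes, with 0 of 25 for RNA processing. Over all 14886 genes, 2.83% were called in that comparison. The male effect minus the female effect was -0.4048 for Nr1d2, -0.2841 for Cry2 and 0.7311 for Cryab on the log2 scale.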

How the results depend on the processing

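No paired analysis was possible because the replicate numbers 1 to 31 in the titles are not shared between the groups. Against the SD of single libraries within groups, no log2 difference of Cirbp or Rbm3 moved by more than that SD in an alternative that kept all libraries or left out the 2 shallowest or the 8 with numbers apart. Several changed by a factor of over 1.5 or changed sign. Cirbp over both sexes went from 0.1457 to 0.0474 on log2(TPM + 1), 0.088 with the length trend removed and -0.0014 without the 8. Cirbp in males went from -0.1709 to -0.2805, -0.2597 and -0.3145 in the same settings. Without the 8, Rbm3 went from -0.1994 to -0.3672 in males and from 0.1701 to 0.0717 in females. Rbm3 over both sexes was -0.0147 and lay between -0.1477 and 0.0023. With 1 library left out, the log2 differences of Cirbp and Rbm3 ran, for SIR minus control, from 0.0899 to 0.2079 and from -0.0709 to 0.0245 over both sexes, from -0.2871 to -0.0488 and from -0.3172 to -0.1332 in males, and from 0.4012 to 0.5037 and from 0.1402 to 0.2417 in females. For the interaction they ran from -0.7539 to -0.5134 and from -0.4925 to -0.3062. For males minus females they ran from 0.6132 to 0.731 and from 0.6183 to 0.709 over both rearing groups, from 0.2363 to 0.4743 and from 0.3721 to 0.5559 in SIR offspring, and from 0.912 to 1.026 and from 0.8196 to 0.9069 in controls. The correlation of Cirbp with Rbm3 ran from 0.844 to 0.898, and was 0.681 with group means removed and 0.803 without the 8 libraries with numbers apart. That of Cirbp with Hspa1a ran from -0.12 to 0.126 (-0.278 without the 8) and that of Rbm3 with Hspa1a from -0.006 to 0.227 (-0.121 without the 8). The share of Cirbp-202 was 75.61% of TPM, against 86.68% of counts (86.4% to 87.07% with 1 library left out). The shares of Cirbp-201, Rbm3-206, Rbm3-202, Rbm3-204 and Rbm3-203 ran from 7.11% to 7.692%, 21.46% to 22.3%, 28.36% to 29.27%, 11.23% to 12.27% and 30.53% to 31.45%.

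With 1 library left out, the counts over both sexes, in males, in females, for the interaction and for sex ran 1 to 4, 0 to 0, 0 to 1, 0 to 0 and 0 to 5 for RNA processing, 0 to 3, 0 to 1, 1 to 3, 1 to 2 and 2 to 7 for heat shock, and 0 to 1, 0 to 1, 0 to 3, 2 to 3 and 3 to 4 for the clock. For RNA processing, the count over both sexes was 1 with no filter, with log2(TPM + 1) and with the length trend removed, and 0 without the 8 libraries. In males it was 1 with DESeq2 and with log2(TPM + 1). The count for sex was 1 with RLE scaling, upper-quartile scaling, no filter, the length trend removed and without the 2 shallowest, and 0 with log2(TPM + 1) and without the 8. For heat shock, the count over both sexes was 1 with the length trend removed and without the 2 shallowest and 0 without the 8, in males 2 with DESeq2 and 1 without the 8 or the 2 shallowest, in females 1 with no filter and with log2(TPM + 1) and 0 without the 8, for the interaction 3 with upper-quartile scaling and 2 with DESeq2, and for sex 1 without the 8. For the clock, the count in males was 0 with the length trend removed and 4 without the 8, and in females 0 with log2(TPM + 1), without the 8 and without the 2 shallowest. Settings without libraries test fewer animals; the cause of the other changes was not tested.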
